A study of Mus musculus with 6 samples.

Results

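The untreated mouse wound at its middle stage was set against the untreated wound at its early stage, gene by gene. The set of genes was every gene listed in both the middle and the early expression table, 20625 of the 26644 genes in the whole series. No difference between the libraries was used to choose them, but a table lists a gene only from 2 reads over its pair of libraries, so a gene silent in both early libraries is left out. Of genes listed in the middle table only, 208 had at least 10 reads in the middle control, and of those in the early table only, 46 had at least 10 in the early control. RNA sequencing was done on mouse skin wounds with and without C-PC (C-phycocyanin, the blue light-harvesting protein of Spirulina), at stages called early, middle and late. Of its 6 libraries, 2 form this comparison: the middle control, a wound that received no treatment, and the early control, likewise untreated. The early C-PC library, from a wound of the early stage that received C-PC, is given beside them where a difference could rest on the early control alone. The labels give the tissue as skin for all libraries and name the stage, but no day, strain, genotype, age, sex, body site or wound model, and they do not say whether a library held tissue of 1 animal or several. Each stage and treatment has 1 library, so no difference below has a replicate check and no p-value is given.

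A skin wound heals in overlapping steps. In the early, inflammatory step neutrophils and monocytes enter the wound and release cytokines and chemokines. In the proliferative step fibroblasts and new vessels build granulation tissue, a collagen-rich filling, while keratinocytes at the wound edge switch on a set of stress keratins (Krt6, Krt16, Krt17), crawl over that tissue and then stratify again into a basal layer, spinous and granular layers and a cornified surface. Muscle under the skin that was cut is repaired by satellite cells, which carry Pax7, become myoblasts under Myod1 and Myog, and fuse into fibres that pass through an embryonic myosin stage.

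The middle control held 15863637 reads on genes and the early control 18028674, and the other 4 libraries held 16187258 to 17184948. Differences are given as log2 ratios of middle control over early control in CPM (read counts scaled to library size) plus 0.1, scaled together with the TMM method of edgeR (trimmed mean of M-values). Ratios are followed where needed by a 95% interval from the reads, which covers counting error only and not variation between wounds. CPM values use all reads on genes, and the TMM scaling adds 0.09 to the log2 ratio that these CPM alone would give. A gene was compared when it had at least 10 reads in 1 of the libraries, and it counts below as higher or lower when the ratio was at least 2-fold, a log2 ratio of 1.

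Of 16817 genes compared, 1542 were at least 2-fold higher in the middle control, which is 9.17% of them, and 1059 were at least 2-fold lower, which is 6.30%. The other 14216 genes, 84.5%, lay within 2-fold, and the median log2 ratio over all genes was -0.01. Among the 2601 genes past 2-fold, the counting interval excluded equality for 2391. The upper tail was the longer, with 140 genes at least 16-fold higher and 30 at least 16-fold lower in the middle control. When the middle control was set against the early C-PC library instead, 11.7% of 16651 genes were higher and 5.62% were lower; both comparisons use the same middle control. Between the early libraries themselves, 3.46% of 16589 genes were at least 2-fold higher in the C-PC library and 7.66% were lower than in the early control.

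**Figure D1:**
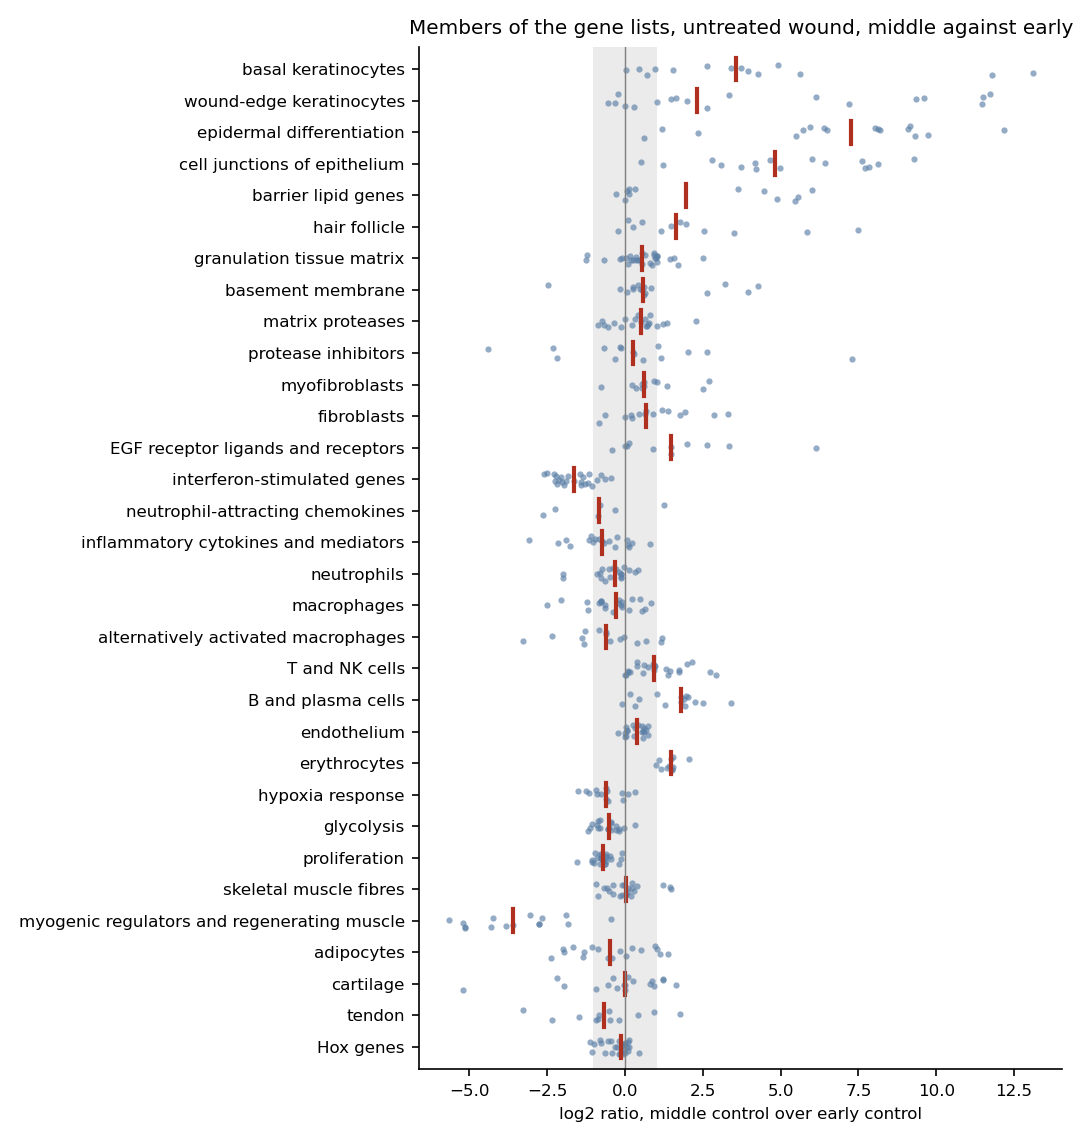
Log2 ratio of middle control over early control (horizontal axis) for every compared member of selected gene lists (rows). Each point is a gene, the red bar is the median of the list, and the grey band marks ratios within 2-fold; the epidermal lists reach furthest to the right, and the myogenic and interferon-stimulated lists lie to the left.

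The tissue labels were first read against defining markers. Epidermal markers were present in the middle control and absent or nearly so in the early control: Krt14 had 13548 reads against 0, Krt5 had 5421 against 0, Krt1 had 7169 against 0, Lor had 987 against 0, and Krt10 had 5153 against 9. Markers of dermis and granulation tissue were high in both, with 418923 reads of Col1a1 in the middle control and 322543 in the early control, and 41726 against 34252 reads of Dcn. Skeletal muscle markers were also present in both, with Ckm at 12440 reads in the middle control and 15370 in the early control. The library labelled early skin thus held wound bed and muscle transcripts, and no reads of Krt14, Krt5 or Krt1. Bone and marrow markers were read in both controls too, with 614 reads of Ibsp in the middle control and 3018 in the early control, and 1806 against 3423 reads of Mpo, a granule enzyme of neutrophil precursors; the early C-PC library had 0 and 8. In tissue libraries such as these, fewer cells of a type and less RNA per cell cannot be told apart.

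The interferon and keratinocyte genes carry recognisable motifs close to their start sites, and 6 promoters that hold such a match are shown, from lists that differed between the controls. Each runs 5′ to 3′ on the strand of the gene, from 250 bases before to 50 after the start site, in the RefSeq table of build GRCm38.p6. Capitals mark matches on either strand. In the first set, from genes that were lower in the middle control, the motif is GAAA, any pair of bases and GAAA again (TTTC, a pair and TTTC on the other strand), the core of the interferon-stimulated response element. Ifit1 is at chr19:34640639-34640938 on the plus strand, Ifit3 at chr19:34583279-34583578 on the plus strand and Isg15 at chr4:156200769-156201068 on the minus strand.
Ifit1: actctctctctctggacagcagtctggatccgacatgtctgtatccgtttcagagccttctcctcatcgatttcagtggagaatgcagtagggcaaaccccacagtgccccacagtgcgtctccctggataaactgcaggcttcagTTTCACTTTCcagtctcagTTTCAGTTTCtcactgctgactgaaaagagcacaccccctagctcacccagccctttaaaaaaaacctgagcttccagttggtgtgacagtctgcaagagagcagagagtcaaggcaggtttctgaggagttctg
Ifit3: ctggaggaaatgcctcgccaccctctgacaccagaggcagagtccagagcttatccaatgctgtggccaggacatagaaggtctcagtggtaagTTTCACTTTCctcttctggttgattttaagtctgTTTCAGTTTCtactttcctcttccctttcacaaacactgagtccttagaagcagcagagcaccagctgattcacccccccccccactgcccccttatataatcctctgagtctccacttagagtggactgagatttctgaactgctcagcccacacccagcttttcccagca
Isg15: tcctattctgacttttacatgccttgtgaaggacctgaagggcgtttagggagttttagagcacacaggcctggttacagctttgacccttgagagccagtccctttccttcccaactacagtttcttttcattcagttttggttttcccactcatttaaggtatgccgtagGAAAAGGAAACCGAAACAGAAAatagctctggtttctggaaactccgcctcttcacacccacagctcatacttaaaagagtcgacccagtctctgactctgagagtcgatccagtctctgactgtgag

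In the second set, from genes that were higher in the middle control, the capitals mark TGANTCA, where N is any base. This pattern is looser than the site of the AP-1 family, TGACTCA or TGAGTCA. Lor holds TGAGTCA, while the matches in Sprr1b and Serpinb2 are TGAATCA, which differs from that site in the middle base. Sprr1b is at chr3:92438730-92439029 on the minus strand, Serpinb2 at chr1:107511173-107511472 on the plus strand and Lor at chr3:92083093-92083392 on the minus strand.
Sprr1b: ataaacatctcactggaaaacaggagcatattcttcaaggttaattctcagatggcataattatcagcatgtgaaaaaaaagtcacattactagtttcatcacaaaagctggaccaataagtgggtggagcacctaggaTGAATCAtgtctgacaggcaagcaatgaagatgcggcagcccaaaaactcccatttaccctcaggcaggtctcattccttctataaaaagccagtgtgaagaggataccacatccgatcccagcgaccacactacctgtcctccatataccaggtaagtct
Serpinb2: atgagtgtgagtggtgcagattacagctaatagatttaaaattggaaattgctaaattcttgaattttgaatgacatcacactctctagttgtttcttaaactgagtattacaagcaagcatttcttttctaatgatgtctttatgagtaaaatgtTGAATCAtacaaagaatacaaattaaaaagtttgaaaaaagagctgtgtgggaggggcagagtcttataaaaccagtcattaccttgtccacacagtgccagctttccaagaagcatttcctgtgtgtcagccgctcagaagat
Lor: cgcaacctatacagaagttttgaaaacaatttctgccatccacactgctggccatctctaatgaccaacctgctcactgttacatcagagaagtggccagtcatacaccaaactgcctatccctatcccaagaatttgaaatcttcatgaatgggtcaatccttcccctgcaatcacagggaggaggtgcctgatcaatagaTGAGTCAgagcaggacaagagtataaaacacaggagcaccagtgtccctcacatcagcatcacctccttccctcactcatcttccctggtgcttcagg

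The interferon motif was found in 11 of the 18 interferon-stimulated genes with a promoter in the table, 61.1%. Among all 27025 genes with a promoter of the same length, the share was 3.99%. TGANTCA, with any middle base, was found in 7 of 12 wound-edge keratinocyte genes with a promoter, 58.3%. It was found in 9 of 25 epidermal differentiation genes, 36%, against 8.97% of all genes with a promoter. The 7 include Plaur and Mmp13, which lay within 2-fold between the controls. How many of these matches are the AP-1 site itself was not counted. These are matches of letters within 300 bases, not measured binding. In Ifit1, Ifit3 and Isg15 the first match to the motif begins 104, 156 and 78 bases before the start site, and in Sprr1b, Serpinb2 and Lor it begins 111, 94 and 48 bases before it.

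The 15 highest ratios picked by the naming rule were all of genes known from keratinocytes. Of 14 compared genes of basal keratinocytes, the dividing layer on the basement membrane, 10 were higher and 0 lower, with a median log2 ratio of 3.57. Of 16 genes of epidermal differentiation, 15 were higher and 0 lower, with a median of 7.25, or 7.21 when genes without reads were set to a floor of 3 reads. Read against the 9.17% of all genes that were higher, these are 71.4% and 93.8% of the members. The summed level of the differentiation list was 1536 CPM in the middle control and 84.6 CPM in the early control, and 116 CPM in the early C-PC library. A single gene, Asprv1, held most of both early sums, with 66.3 CPM in the early control and 94.1 CPM in the early C-PC library.

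Krt14 and Krt5, which pair into the filaments of basal keratinocytes, had no reads in the early control. Against a floor of 3 reads, Krt14 was at least 5446-fold higher and Krt5 at least 2179-fold higher in the middle control. The early C-PC library had 32 reads of Krt14 and 23 of Krt5, so both early libraries were low. Col17a1, a collagen of the hemidesmosome that anchors the basal layer, had 1260 reads in the middle control and 29 in the early control, and its log2 ratio was 5.62 (95% interval 5.18 to 6.30). Trp63, the transcription factor that specifies stratified epithelium, was at 518 against 57 reads (3.41). Krt15 was at 96 against 2 reads. Basal genes shared with other tissues were less far apart: Itga6 was at 0.70, Itga3 at 0.97, Dst at 0.45 and Bcam at 0.05. Trp63, Krt15, Itga6, Itga3, Dst and Bcam were chosen after their values were seen.

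Among 18 genes of wound-edge keratinocytes, 13 were higher and 0 lower, with a median of 2.31. Krt6a, Krt6b and Krt16, keratins switched on by injury, had 4455, 5203 and 4356 reads in the middle control and 0 each in the early control. Against the floor, these are differences of at least 1791-fold for Krt6a, 2092-fold for Krt6b and 1751-fold for Krt16. Krt6a and Krt6b are near-identical copies, so their separate counts are uncertain. Krt17 was read 2096 times in the middle control and 2 times in the early control (log2 ratio 9.36, interval 8.45 to 13.35). Sprr1b, a small proline-rich protein that is cross-linked into the cell envelope, had 1211 against 0 reads and was at least 487-fold higher, and Sprr2d had 464 against 2. Serpinb2, a protease inhibitor of stressed keratinocytes and macrophages, had 3055 reads in the middle control and 588 in the early control, a log2 ratio of 2.64. The 5 members that lay within 2-fold are made by other wound cells as well: Plau was at -0.54, Plaur at -0.32, Itga5 at -0.22, Mmp13 at 0.00 and Slpi at 0.29.

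Genes of the upper epidermal layers had few or no reads in the early control. Krt1, the partner of Krt10 in spinous cells, had 7169 reads against 0 and was at least 2882-fold higher in the middle control, and Krt10, with 5153 against 9, had a log2 ratio of 9.16 (8.51 to 10.56). Lor, the main protein of the cornified envelope, was at least 397-fold higher, and Rptn, a filament-associated protein of the granular layer, had 1324 against 0 reads and was at least 532-fold higher. Ivl, an early envelope protein, had 136 against 0 reads and was at least 54.7-fold higher. Krtdap had 1290 against 1 read, Casp14 had 617 against 1 and Klk7, a protease that helps shed cornified cells, had 685 against 1. Calm4, a calcium-binding protein of differentiating keratinocytes, had 2484 against 1 (10.03, interval 9.07 to 16.85). The gene nearest to equal was Asprv1, at 1523 reads in the middle control and 1196 in the early control (0.62). A further 12 genes of this list are not listed in both tables. The 2264 genes listed in the middle table only include Dsc1 with 817, Flg with 812, Dsg1a with 749 and Dsg3 with 600 reads in the middle control; these 4 were chosen after their values were seen.

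**Figure D2:**
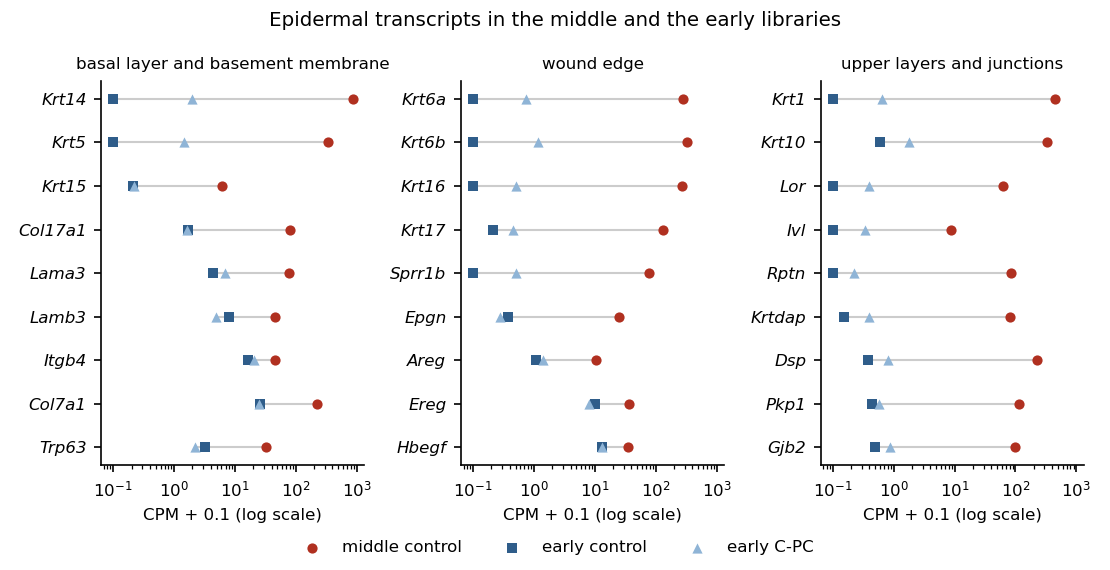
CPM plus 0.1 on a log axis for epidermal genes (rows) in the middle control, the early control and the early C-PC library (1 point each, 1 library per group). Every middle control point lies right of both early points, and Krt14 is at 854 CPM in the middle control, against 0 in the early control and 1.90 in the early C-PC library.

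Cell junction genes were likewise higher, with 15 of 16 higher, 0 lower and a median of 4.81. Dsp, which ties desmosomes to keratin filaments, had 3547 reads in the middle control and 5 in the early control (9.29, interval 8.52 to 11.36). Pkp1 had 1827 against 6 (8.13), the desmosomal cadherin gene Dsc3 had 1106 against 4 (7.83), and Gjb2, the gap junction protein connexin 26, had 1551 against 7 (7.72). Outside that list, Aqp3, a water and glycerol channel of keratinocytes, had 1170 against 1 (8.95, interval 7.98 to 15.77). In the early C-PC library the junction genes were also low, with 12 reads of Dsp, 8 of Pkp1, 0 of Dsc3 and 13 of Gjb2.

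Genes that make the lipids of the skin barrier fell into 6 that were higher and 6 within 2-fold, with 0 lower. The 6 that were higher are known for their part in the epidermal barrier: Elovl4, which makes very long fatty acids, had 836 against 14 reads (5.99), Cers3, a ceramide synthase, had 191 against 6 (4.89), and Fa2h had 189 against 3 (5.56, interval 4.68 to 8.54). The 6 within 2-fold are used in most tissues, and Ugcg was the farthest of them above equality at 0.31. Of 12 compared hair follicle genes, 8 were higher and 0 lower with a median of 1.63, but most were scarce. Tchh (trichohyalin), from the hair follicle's inner root sheath, had 373 against 6 reads (5.85), and Krt79, a keratin of the follicle opening, had 274 against 0 and was at least 110-fold higher. Lgr5 and Sox9, markers of follicle stem cells that other tissues also carry, were at 0.25 and 0.09. Fewer differences were seen in the sebaceous gland list, with 4 of 12 higher and a median of 0.42, and among melanocyte genes, with 1 of 5 higher.

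Most genes of the basement membrane list were near equal. Of 16 genes, 4 were higher and 1 lower, with a median of 0.58. Among the higher genes, the laminin chain gene Lama3 had 1247 reads in the middle control and 76 in the early control (4.27), the chain gene Lamb3 had 722 against 140 (2.62) and Col7a1, the collagen of anchoring fibrils, had 3582 against 466 (3.21). The early C-PC library had 115 reads of Lama3, 80 of Lamb3 and 421 of Col7a1, each well below the middle control. Lama1, chosen after its values were seen, was lower on few reads, 2 against 22.

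Most ligands of the EGF receptor, which drive keratinocyte movement and division, were higher in the middle control. Of the 11 ligand and receptor genes, 6 were higher and 0 lower, with a median of 1.48. Epgn (epigen) had 402 reads against 5, with a log2 ratio of 6.15 (5.36 to 8.23), Areg (amphiregulin) had 167 against 18 (3.36), Tgfa had 298 against 56 (2.64), Ereg (epiregulin) had 588 against 178 (1.98) and Hbegf had 550 against 237 (1.48). The sixth, Btc (betacellulin), had 19 against 7, with 39 in the early C-PC library. The ligand gene Egf was within 2-fold, at 57 against 93 (-0.43). Egfr itself had 1965 reads in the middle control and 2145 in the early control, a log2 ratio of 0.14; Btc, Egf and Egfr were chosen after their values were seen. In the early C-PC library there were 3 reads of Epgn, 22 of Areg, 55 of Tgfa, 133 of Ereg and 219 of Hbegf, close to the early control. Basal keratinocyte genes moved with these ligands, with sums of 2431 CPM in the middle control and 615 CPM in the early control. Most of the early sum came from Dst, at 385 CPM, and Itga6, at 120 CPM, which other tissues share. Krt14 and Krt5 had no reads there. The part of basal keratinocytes in the ligand values was not tested. In the Wnt list 9 of 21 genes were higher and 2 lower, with a median of 0.75. The higher ones included Wnt4 (135 against 41 reads, 1.94), the secreted protein gene Dkk3 (1937 against 604, 1.95) and the pathway target Axin2 (146 against 56, 1.62), and the antagonist Sfrp1 was lower (959 against 4162, -1.85). Immediate early genes, which respond to signals within minutes, were mostly near equal, with 4 of 20 higher and 0 lower; those 4 were Egr3 (3.02), Fosb (2.09), Egr2 (1.63) and Klf4 (1.50).

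Granulation tissue matrix took a larger share of reads in the middle control. The 30 compared genes summed to 132680 CPM in the middle control and 84289 CPM in the early control, and to 93575 CPM in the early C-PC library. By gene, 8 were higher, 2 lower and 20 within 2-fold, with a median log2 ratio of 0.56. Col3a1, the fibrillar collagen laid down early in granulation tissue, had 541222 reads in the middle control and 321003 in the early control, a log2 ratio of 1.02 (1.02 to 1.03). Col1a1 was at 0.65 and Col1a2 at 0.86. Because these genes hold many reads, their counting intervals are narrow, but the spread between wounds at 1 stage was not measured.

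The largest ratio of the list was that of Postn (periostin), which organises collagen in healing tissue; it had 75562 reads in the middle control and 16151 in the early control, a log2 ratio of 2.50 (2.47 to 2.52), with 28133 in the early C-PC library. Thbs2 had 35016 against 13094 (1.69), Col14a1 had 14229 against 5721 (1.58), and Lum, a small proteoglycan that spaces collagen fibrils, had 23300 against 10404 (1.43). In the other direction, Lox, which cross-links collagen and elastin, had 14868 reads in the middle control and 42642 in the early control (-1.25), and Spp1 (osteopontin) had 6734 against 19112 (-1.23). Fn1, the provisional matrix protein fibronectin, was nearly equal at 0.10, with 61100 against 68621 reads.

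**Figure D3:**
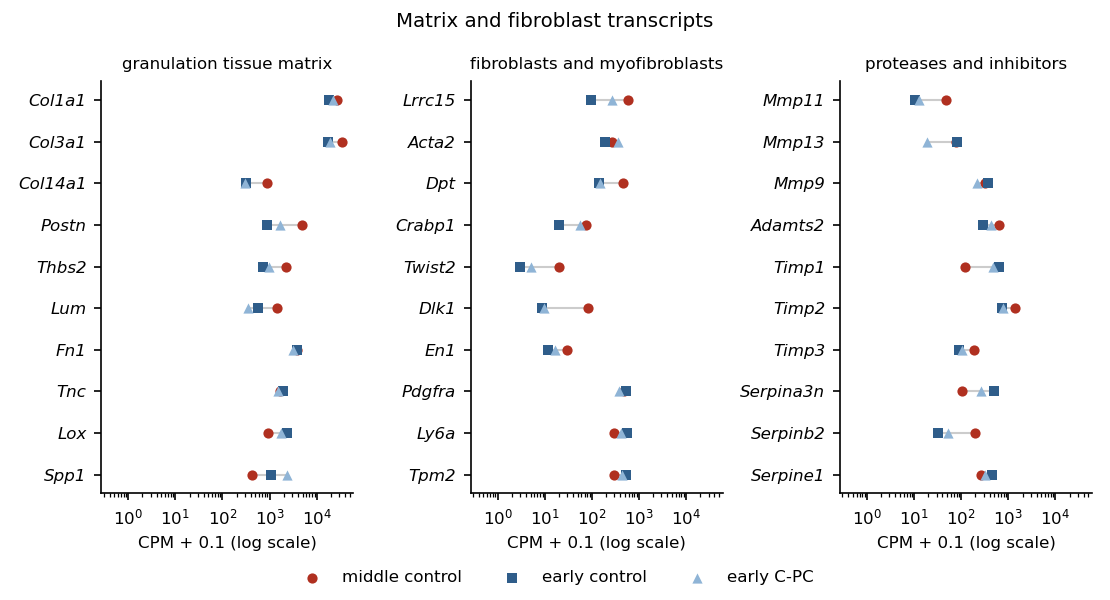
CPM plus 0.1 on a log axis for matrix, fibroblast and protease genes (rows) in the middle control, the early control and the early C-PC library, 1 library each. Postn, Lrrc15, Dlk1 and Twist2 lie to the right in the middle control, while Timp1, Serpina3n, Lox and Spp1 lie to the left.

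Fibroblast genes differed by kind. Of 15, 6 were higher and 0 lower, with a median of 0.66. Dlk1, a membrane protein of immature mesenchyme, had 1308 reads in the middle control and 158 in the early control (3.30), Twist2 (Dermo1), a dermal transcription factor, had 315 against 51 (2.85), Crabp1 had 1163 against 367 (1.93), and Dpt (dermatopontin) had 7234 against 2547 (1.78). En1, which marks scar-forming fibroblasts of the back skin in mice, had 459 against 211 (1.38). The general fibroblast receptor gene Pdgfra was equal, with 7793 against 9451 reads (-0.01). Among 12 myofibroblast genes 4 were higher, led by Lrrc15, a surface protein of myofibroblasts, with 9389 against 1751 reads (2.69). The contractile actin gene Acta2 was within 2-fold at 0.55. Acta2 was chosen after its values were seen. For Lrrc15 and Crabp1 the early C-PC library lay between the controls, with 4400 and 922 reads.

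Matrix proteases were mostly near equal, with 4 of 21 higher, 0 lower and a median of 0.53; the largest ratio was that of Mmp11 (stromelysin 3), at 761 against 187 reads (2.28). Their inhibitors went both ways, with 5 of 15 higher and 3 lower. Timp1, the inhibitor induced by inflammation, had 1886 reads in the middle control and 11404 in the early control, a log2 ratio of -2.33 (-2.40 to -2.26). Timp2, Timp3 and Timp4 were at 1.05, 1.17 and 2.03; these 3 were chosen after their values were seen. Serpina3n, an acute phase inhibitor, was at 1640 against 9094 (-2.20), and Serpinb5 (maspin), an epithelial serpin, was at 624 against 3 (7.28, interval 6.42 to 10.25). Within the hyaluronan list, Has3 (217 against 25 reads, 3.29), Has1 (591 against 183, 1.95) and Tnfaip6, which links hyaluronan to protein (3600 against 922, 2.23), were higher. Of the TGF-beta list, 3 of 21 genes were higher and 3 lower: Tgfb2 was at 1.46, and Ltbp2, a latent TGF-beta binding protein relative found on elastic fibres, was at -2.45 with 669 against 4402 reads.

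Interferon-stimulated genes, the antiviral programme that type I interferon switches on, were lower in the middle control as a group. Of 25 genes, 21 were lower and 0 higher, with a median log2 ratio of -1.65, against 6.30% lower among all genes. Their summed level was 846 CPM in the middle control, 2691 CPM in the early control and 2892 CPM in the early C-PC library. Ifit3, which binds with other Ifit proteins to foreign RNA, had 405 reads in the middle control and 2978 in the early control (-2.60, interval -2.76 to -2.46). Ifit1 had 291 against 1636 (-2.21), the ubiquitin-like Isg15 had 331 against 1900 (-2.25), Mx1 had 138 against 949 (-2.50), and Irf7, the transcription factor that amplifies the response, had 1317 against 7173 (-2.17). Among the 4 members within 2-fold, Bst2 was at -0.90, Ddx58 at -0.79 and Gbp2 at -0.44, and each of the 25 had a ratio below equality. Against the early C-PC library, 23 of the 25 were lower in the same middle control, with a median of -1.81. Macrophage genes, whose cells also make these transcripts, summed to 7680 CPM in the middle control and 10765 CPM in the early control, and their part in the values was not tested. Ifit3 shares sequence with Ifit3b (-2.27), and the counts of that pair are uncertain.

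Chemokines differed in both directions. Among 6 that attract neutrophils, Cxcl2 had 708 reads in the middle control and 5341 in the early control (-2.64) and Cxcl3 had 189 against 1102 (-2.26), but Cxcl5 had 9783 against 5005 (1.24). Cxcl5 had 2936 reads in the early C-PC library. Among 21 other chemokines, 4 were higher and 5 lower. Cxcl14, a chemokine of resting epithelium and fibroblasts, had 333 reads in the middle control, against 14037 in the early control and 5927 in the early C-PC library, a log2 ratio of -5.12 (-5.29 to -4.97) between the controls. Ccl3 and Ccl4, which draw monocytes, were at 161 against 1196 (-2.61) and 84 against 947 (-3.20). In the higher group were Ccl5 (130 against 43, 1.82) and Cxcl9 (289 against 113, 1.61), which draw T cells; they were chosen after their values were seen.

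Of 19 cytokines and mediators, 7 were lower and 0 higher, with a median of -0.74. Il11, a cytokine of the IL-6 family, had 32 reads in the middle control and 343 in the early control (-3.09), Il1rn, the natural antagonist of the IL-1 receptor, had 836 against 3453 (-1.77), and the granulocyte growth factor gene Csf3 had 100 against 269 (-1.15). The main inflammatory cytokines were closer: Il1b was at -0.27 with 3138 against 4551 reads, Tnf at -0.96 and Il6 at 0.21. These 3 were chosen after their values were seen.

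Genes of the innate white cells themselves were less far apart. Of 20 neutrophil genes, 18 were within 2-fold and 2 were lower, G0s2 and Acod1 (-1.99 each), with a median of -0.33. S100a8 was at -0.66, S100a9 at -0.51 and the receptor gene Csf3r at -0.03. Macrophage genes had 4 of 22 lower and 0 higher, with a median of -0.30. The pan-macrophage genes Adgre1 (0.21), Csf1r (-0.38) and Lyz2 (-0.23) were near equal, while the receptors of recruited monocytes were lower: Ccr2 had 1518 reads in the middle control and 7635 in the early control (-2.06), and Cx3cr1 had 102 against 705 (-2.50). Of 15 genes linked to alternative activation, 5 were lower and 2 higher. Arg1, which turns arginine into ornithine, had 1148 against 6974 reads (-2.33), with 10129 in the early C-PC library, and Cd163, a scavenger receptor for haemoglobin, had 897 against 2680 (-1.31). Igf1, a growth factor made by repair macrophages and fibroblasts, was higher at 6723 against 3547 (1.19), and Trem2, chosen after its values were seen, was at 1556 against 841 (1.16), with 2023 in the early C-PC library.

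Most B and plasma cell genes were higher in the middle control, while most T and NK cell genes lay within 2-fold. Of 24 T and NK cell genes, 9 were higher, 37.5% against 9.17% of all genes, and 0 lower, with a median of 0.92. Cd3e, a chain of the T cell receptor complex, had 48 reads in the middle control and 6 in the early control (2.93, interval 2.04 to 4.79), Trdc, the constant region of the delta chain, had 83 against 24 (1.98), Foxp3, the factor of regulatory T cells, had 36 against 5 (2.72), and Il2rb had 243 against 87 (1.73). Cd4 was equal, at 344 against 391 reads. Cd3e, Trdc, Foxp3 and Cd4 were chosen after their values were seen. Of 15 B and plasma cell genes, 11 were higher, 73.3%, and 0 lower, with a median of 1.81. Igha, the heavy chain of IgA, had 12564 reads against 2676 (2.50), Jchain, which joins IgA and IgM into polymers, had 4223 against 1075 (2.24), and Ighg2c had 6941 against 2390 (1.81). Here the early libraries were far apart, and the early C-PC library had 51 reads of Igha, 17 of Jchain and 6 of Ighg2c.

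**Figure D4:**
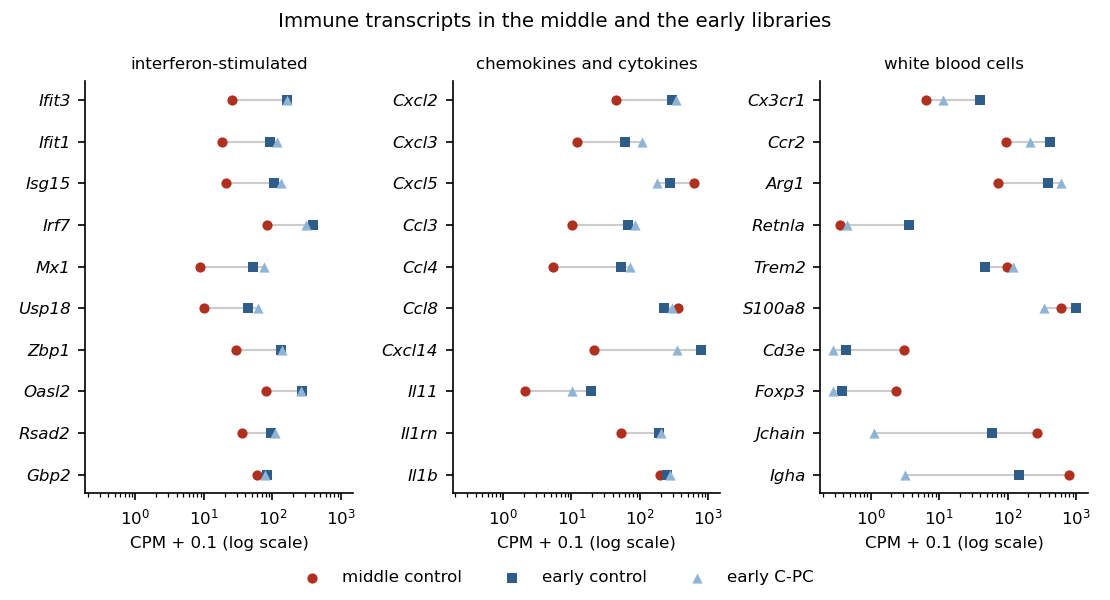
CPM plus 0.1 on a log axis for immune genes (rows) in the middle control, the early control and the early C-PC library, 1 library each. For the interferon-stimulated genes both early points lie to the right of the middle control, while Jchain and Igha are highest in the middle control, lower in the early control and lowest in the early C-PC library.

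Most MHC class II genes, which present antigen, were within 2-fold between the controls. Of 11, 3 were higher and 1 lower, with a median of 0.04; against the early C-PC library 6 were higher and 0 lower, with a median of 1.16. H2-Eb1 had 1964 reads in the middle control, against 93 in the early control and 816 in the early C-PC library, a log2 ratio of 4.64 (4.37 to 4.99) between the controls, and H2-Aa had 2461 against 947 (1.65). H2-Ab1, which pairs with H2-Aa, was equal at 0.01 with 1901 against 2275 reads, and the invariant chain gene Cd74 was at 0.40. H2-Ab1 was chosen after its values were seen. Members of the H2 region are alike in sequence, and their counts may be split between copies.

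Red cell genes were all higher: 11 of 11 passed 2-fold, with a median of 1.49 and a sum of 2417 CPM in the middle control and 932 CPM in the early control. The globin gene Hba-a1 had 17207 against 7110 reads (1.54); it has a near-identical copy, Hba-a2. Alas2, the haem synthesis enzyme of erythroid cells, had 1050 against 563 (1.17). In the early C-PC library Hba-a1 was at 7469 reads and Alas2 at 367. Granulocyte precursor genes differed less between the controls, with 2 of 14 lower, 0 higher and a median of -0.56, and sums of 1802 CPM in the middle control and 2896 CPM in the early control. In the early C-PC library that sum was 225 CPM, and 13 of the 14 genes were higher in the middle control than there. Elane, a protease of neutrophil precursors, had 1135 reads in the middle control, 1849 in the early control and 1 in the early C-PC library. The part of such marrow transcripts in the red cell and plasma cell values was not tested. Alas2 and Elane belong to the markers used to check tissue identity.

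Endothelial genes were near equal. None of the 20 was past 2-fold in either direction, and the median was 0.37; Pecam1 had 6723 reads in the middle control and 5369 in the early control (0.59), and Cdh5 was at 0.54. Other vessel lists held a few genes past 2-fold. Of 6 lymphatic genes, 1 was lower, Pdpn (podoplanin), at 893 against 2776 reads (-1.36), and 5 lay within 2-fold, with a median of -0.18. The list summed to 155 CPM in the middle control and 282 CPM in the early control, of which Pdpn alone held 56.3 and 154 CPM. Of 10 pericyte and smooth muscle genes, Notch3 was higher (1.07) and Des lower (-1.90), and of 13 angiogenic factors, Pgf (1.09) and Angpt2 (1.04) were higher. The growth factor Vegfa was lower, at 615 against 1652 reads (-1.15). It belongs also to the hypoxia list, in which 3 of 14 genes were lower and 0 higher with a median of -0.62; the lipid droplet gene Hilpda was at -1.51. Of 20 glycolysis genes, 3 were lower and 0 higher, with a median of -0.52; Eno1 had 3917 against 10705 reads (-1.18). None of 19 nuclear genes of oxidative phosphorylation was past 2-fold, with a median of -0.20. Proliferation genes were lower by less than 2-fold in most cases: 4 of 25 passed, 0 were higher, and the median was -0.70. The shares lower were 21.4% for hypoxia, 15% for glycolysis and 16% for proliferation genes, against 6.30% of all genes. For lymphatic genes and angiogenic factors they were 16.7% and 7.69%, and 15.4% of angiogenic factors were higher, against 9.17% of all genes. Each of these shares rests on a few genes. Plk1, a mitotic kinase, had 278 reads in the middle control and 970 in the early control (-1.53), while Mki67, chosen after its values were seen, was at -0.11.

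Muscle genes differed between mature fibres and regeneration. The 23 genes of mature skeletal muscle fibres had 3 higher and 0 lower, a median log2 ratio of 0.03, and sums of 11839 CPM in the middle control and 14664 CPM in the early control. Myh4, the fast myosin heavy chain, had 34620 against 44993 reads (-0.11), and Acta1, the actin of the sarcomere, had 41114 against 73998 (-0.58). By contrast, 14 of 15 genes of myogenic regulation and regenerating muscle were lower and 0 higher, with a median of -3.61, and their sum was 425 CPM in the middle control and 1967 CPM in the early control.

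Each stage of muscle repair was represented among the lower genes. Pax7, the satellite cell factor, had 4 reads in the middle control and 80 in the early control (-3.62), and Myod1, which commits myoblasts, had 22 against 557 (-4.30). Myog, which starts differentiation, had 17 against 820, which is -5.20 (-6.11 to -4.63). The fusion genes Mymk and Mymx had 7 against 360 (-5.13) and 1 against 154 (-5.67, interval -12.31 to -4.50). Myh3, embryonic myosin, had 50 against 2186 (-5.14), and Chrna1, the acetylcholine receptor chain of young or denervated fibres, had 58 against 1366 (-4.25). Ncam1, which nerve also carries, was the member within 2-fold at -0.46. Pax7, Mymx and Ncam1 were chosen after their values were seen. Regeneration genes were high in the early C-PC library too, with 50 reads of Pax7, 269 of Myod1, 507 of Myog, 357 of Mymk and 1635 of Myh3. Against that library 14 of 15 were lower in the same middle control, with a median of -3.22. Fibre genes were different in this respect: 16 of 23 were higher in the middle control than in the early C-PC library, whose sum was 6646 CPM.

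**Figure D5:**
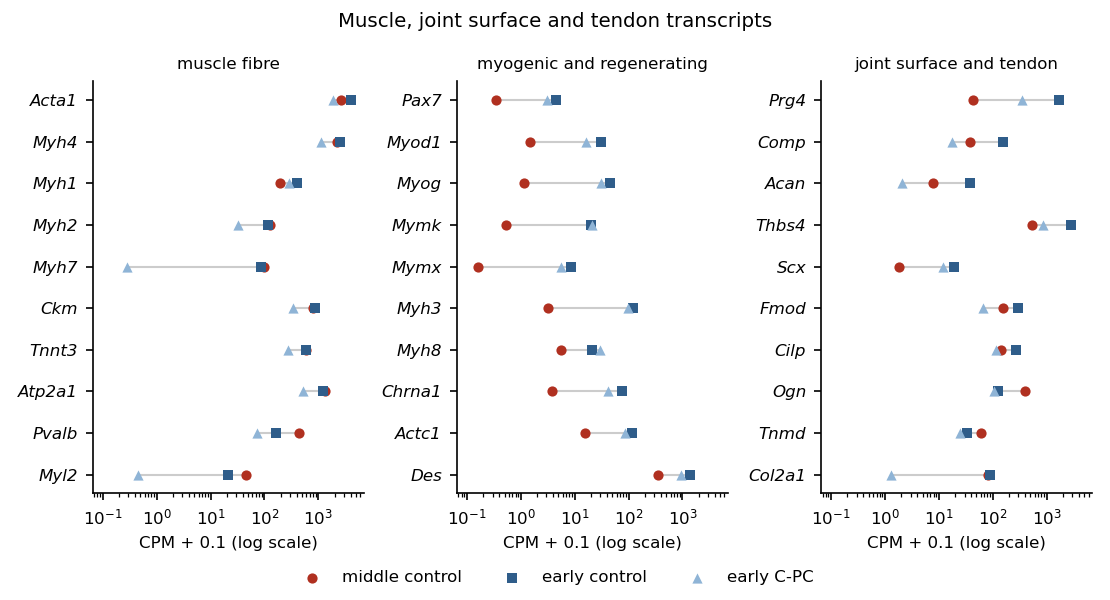
CPM plus 0.1 on a log axis for muscle, joint and tendon genes (rows) in the middle control, the early control and the early C-PC library, 1 library each. Fibre genes lie close together in the controls, and myogenic genes lie far to the left in the middle control; Myh7, Myl2 and Col2a1 lie far to the left in the early C-PC library.

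Among genes of joint, tendon and cartilage, and among the lowest ratios, the following were picked by the naming rule. Prg4 (lubricin), which lubricates joint and tendon surfaces, had 691 reads in the middle control and 30701 in the early control, a log2 ratio of -5.20 (-5.31 to -5.09), and 5969 in the early C-PC library. Thbs4, a tendon and muscle matrix protein, had 8496 against 51801 (-2.34) with 14153 in the early C-PC library. Scx, the tendon transcription factor, had 28 against 343 (-3.28), and Comp, a cartilage and tendon matrix protein, had 599 against 2828 (-1.97) but 291 in the early C-PC library. Aldh1a2, a retinoic acid synthesis enzyme, had 17 against 3214, the lowest ratio among the genes named by rule at -7.17 (-8.07 to -6.61), with 233 in the early C-PC library. Ankrd1, a stress-induced muscle ankyrin repeat protein, had 41 against 2074 (-5.34). Ogn (osteoglycin) went the other way at 6363 against 2250 (1.77).

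As lists, cartilage, tendon and bone were less one-sided than those genes. Cartilage had 3 of 18 genes higher and 3 lower with a median of 0.00, tendon had 1 of 12 higher and 3 lower, and bone had 2 of 18 higher and 6 lower. Col2a1, the main collagen of cartilage, had 1282 reads in the middle control, 1599 in the early control and 20 in the early C-PC library. Ibsp (bone sialoprotein) was lower at 614 against 3018 (-2.02), and Acan (aggrecan) at 123 against 685 (-2.19); the early C-PC library had 0 reads of Ibsp and 33 of Acan. The direction for these tissues depended on which early library was used: against the early C-PC library, 12 of 17 bone genes were higher and 0 lower in the middle control, and 12 of 18 cartilage genes were higher and 2 lower. Adipocyte genes were also divided between the controls, with 3 of 18 higher and 7 lower. Cfd (adipsin) had 499 against 2355 reads (-1.97) and Plin1, the lipid droplet coat protein, had 149 against 576 (-1.67), while Pparg was at 1.13. Against the early C-PC library, 4 of 17 adipocyte genes were higher and 1 lower, with a median of -0.19.

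Transcription factor genes that keep a record of body position were also compared. Of 28 Hox genes, 0 were higher and 2 were lower, with a median of -0.14, so most lay within 2-fold. Among 20 limb and region transcription factors, 5 were higher and 4 lower. Irx5 had 154 reads in the middle control and 45 in the early control (2.00), Irx3 had 135 against 60 (1.41), Pitx1, the hindlimb factor, had 39 against 2 (3.66, interval 2.61 to 7.65) and Shox2 had 98 against 24 (2.21); the last 2 were chosen after their values were seen. For comparison, the early C-PC library had 29 reads of Pitx1 and 271 of Shox2. The 4 lower genes were Alx4 (29 against 128 reads, -1.82), Sim2 (24 against 96, -1.67), Pax1 (6 against 25, -1.56) and Pax9 (23 against 78, -1.43). These were also chosen after their values were seen, and the early C-PC library had 33, 36, 0 and 7 reads of them. All 4 sex-linked genes lay within 2-fold.

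A few extreme genes may not be read as single-gene values. Rpl26, a ribosomal protein gene with many processed copies, had 84 reads in the middle control, 3358 in the early control and 1599 in the early C-PC library. The pregnancy-hormone relative Prl2c3, which has near-identical neighbours, had 345, 0 and 9 reads and was chosen after its values were seen. Reads of such genes can be split between copies by the counting, so their ratios are uncertain. Mitochondrially encoded genes had 4 of 12 higher, 33.3% against 9.17% of all genes, and 0 lower. Among the 4, mt-Co3 had 983 against 301 reads (1.97) and mt-Atp6 959 against 310 (1.89). By contrast mt-Co1, with 142565 against 135308 reads, was at 0.35. The 4 higher genes lay at only 2.90 to 77.7 CPM in the middle control, where mt-Co1 was at 8987 CPM. The reason for these low levels was not tested, so the ratios of the 4 are uncertain.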

How the data were processed

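The labels describe total RNA from skin, made into libraries with an unstranded kit, so overlapping and antisense genes cannot be told apart. The deposited tables, 1 per stage, hold a normalized expression signal for a C-PC and a control library, scaled separately in each table, with the authors' log2 ratio and the authors' p-value, which were not used here because each group has 1 library. For the aligner, counter and annotation the sources used here give no name; the submitters' processing notes name the human build hg38, while the identifiers are mouse, and 25862 of 26644 genes, 97.1%, have the coordinates of a GRCm38 annotation.

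The authors' signal values are whole reads multiplied by a constant with a small offset per library. Fitting both gave whole numbers of reads for 100% of values, within 0.1 read; the largest distance was 0.0026 read in the middle control. Division by the smallest value alone would have given totals of 16092556 reads for the middle control, against 15863637. Reads were scaled together with TMM in edgeR 4.0.16 (R 4.3.3), and log2 ratios used a pseudocount of 0.1 CPM. Intervals are exact conditional binomial 95% intervals. A gene with 0 reads was set against a floor of 3 reads per library. The scripts (Python 3.11.15, numpy 2.4.6, pandas 2.3.3, scipy 1.17.1, matplotlib 3.10.9) were tested on simulated counts.

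Named genes were the 15 top and 15 bottom ratios of protein-coding genes whose mean reached 5 CPM, the 10 genes with most reads in each library, up to 4 members of each of 58 lists at that level, every member of a list whose promoters are shown, and the fixed tissue markers; others are marked. The genes and lists were chosen with earlier results of these data known. Alternatives tried were DESeq2 1.42.0 size factors, total reads, a pseudocount of 1 CPM, a minimum of 50 reads, no minimum, protein-coding genes only, and the early C-PC library in place of the early control.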

Additional observations from a re-analysis of the deposited data

Results flagged for a closer look

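For 6 gene lists the median ratio of middle over early was below equality between the C-PC libraries and above it between the controls, by 2-fold or more on each side. Many members had few reads in both C-PC libraries, so the medians are also given over members with at least 10 reads in 1 of them. For wound-edge keratinocytes the median log2 ratio was -3.19 between the C-PC libraries over 17 genes (-4.48 over the 12 with enough reads), and 2.31 between the controls. The injury keratin genes Krt6a, Krt6b, Krt16 and Krt17 had only 11, 18, 7 and 6 reads in the early C-PC library and 0 each in the middle one. The list summed to 751 CPM in the early C-PC library, of which Itga5, made by other wound cells as well, held 350 CPM. Serpinb2 had 879 reads in the early and 0 in the middle C-PC library. Barrier lipid genes were at -1.85 between the C-PC libraries over 12 genes (-2.56 over 9), and at 1.97 between the controls. EGF receptor ligands and receptors were at -1.17 between the C-PC libraries over 11 genes (-1.11 over 10), and at 1.48 between the controls. The stefin A cluster, a group of cysteine protease inhibitor genes, was at -7.59 between the C-PC libraries over 6 genes (-8.07 over 5), and at 1.98 between the controls. Those 6 genes summed to 0.291 CPM in the middle and 183 CPM in the early C-PC library, so the size of that ratio depends on the pseudocount.

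For the other 2 lists the C-PC ratios of many members rest on near-zero counts, so the direction of those ratios is uncertain. Epidermal differentiation genes were at -1.62 between the C-PC libraries and 7.25 between the controls over 16 genes. Only 8 of them had enough reads in a C-PC library (-3.35). The list summed to 6.81 CPM in the middle and 116 CPM in the early C-PC library, where Asprv1 alone held 94.1 CPM. Hair follicle genes were at -1.56 between the C-PC libraries and 1.63 between the controls over 12 genes, of which 5 had enough reads (-2.00), with sums of 5.64 CPM in the middle and 29.8 CPM in the early C-PC library. Ratios of the C-PC libraries were scaled by total reads. Each rests on 1 library per stage and treatment, and the difference between treatments was not tested.

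The middle C-PC library differed from the middle control in its tissue markers. Its summed level of skeletal muscle fibre genes was 175620 CPM, against 11839 CPM in the middle control. The untreated late library had a similar level, 170700 CPM. The part of muscle tissue in these differences was not tested.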

How the results depend on the processing

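The counts of higher and lower genes, 1542 and 1059, moved beyond 1.5 times under 2 settings: a minimum of 50 reads gave 848 and 603, and a pseudocount of 1 CPM gave 889 and 545, since the first compares fewer genes and the second shrinks the ratios of genes with few reads. DESeq2 size factors gave 1538 higher and 1064 lower, total reads 1393 and 1202, no read minimum 2198 and 1541, protein-coding genes only (added after seeing the data) 1185 and 794, and the early C-PC library in place of the early control 1947 and 936. The check of named genes covered 200 of them, without Alx4, Sim2, Pax1 and Pax9. Of these 200, 0 past 2-fold changed direction under another scaling or pseudocount, and 6 did with the early C-PC library. Acan was then at 1.98, Btc at -0.85, Comp at 1.18, Shox2 at -1.31, Trem2 at -0.24 and Ibsp at 8.63. The value of Ibsp depends on the pseudocount because that library had 0 reads. A further 146 genes moved beyond their counting interval with that library and kept direction if past 2-fold, and 12 of 58 list medians moved beyond their spread. No paired analysis was possible because each group has 1 library and the labels give no replicate numbers; for the same reason no library could be left out.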

Other observations

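Some gene families outside the lists were set side by side after their values were seen, and none of these counts was tested. All 8 compared kallikrein-related peptidase genes (Klk), proteases that shed cornified cells, were at least 2-fold higher in the middle control, with a summed level of 115 CPM against 4.05 CPM in the early control and 3.62 CPM in the early C-PC library. All 4 Iroquois transcription factor genes (Irx) were higher, with 59.4 CPM in the middle control, 16.6 CPM in the early control and 20.7 CPM in the early C-PC library. Of 13 small leucine-rich proteoglycan genes, 6 were higher and 0 lower; Aspn (asporin) had 10241 reads in the middle control and 2444 in the early control. Of 82 cytosolic ribosomal protein genes, 3 were higher and 2 lower.

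Immunoglobulin variable segments had 53 of 133 higher and 3 lower in the middle control, with sums of 422 CPM in the middle control and 234 CPM in the early control, but 0.713 CPM in the early C-PC library. Among genes whose symbols start with H2-, 8 of 22 were higher and 4 lower: the class I gene H2-T23 had 1031 reads in the middle control and 75 in the early control, and H2-Q10 had 222 and 12, while H2-Q6 had 351 and 1533 and H2-Q7 had 247 and 994. These genes are alike in sequence, so reads may be split between copies. Growth factors outside the lists were among the higher genes: Ptn (pleiotrophin) had 3343 reads in the middle control and 331 in the early control (3.60), and its relative Mdk (midkine) had 849 and 95 (3.40).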
